A study of Mus musculus with 6 samples.

Results

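The replication-dependent histone gene clusters were examined as 90 transcription starts among the 158966 peaks of a CAGE data set of Ba/F3 cells. CAGE, cap analysis of gene expression, reads RNA from its 5′ cap, so each tag marks where a transcript began and a peak of tags marks a start. Ba/F3 is a mouse pro-B cell line that is widely used to study oncogenic kinases. A peak was taken when it lay wholly inside chr13:21790000-22150000, chr13:23580000-23860000 or chr3:96010000-96250000 of the mouse build mm9 and reached 1 CPM (tags per 1000000 tags of a library) in at least 3 of the 6 libraries. The first chromosome 13 window held 25 such starts of 61 listed, the second 49 of 91, and the chromosome 3 window 16 of 48. The other 110 listed peaks summed to 10.8 ± 0.84 CPM in one group and 8.63 ± 0.73 CPM in the other (SD, n = 3 each), so the starts taken hold nearly all tags of the windows.

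The starts were chosen by position and by their CPM, through the minimum level, and 76 of the 90 reached 1 CPM in all 6 libraries. A further 11 reached it in the 3 FLT3-ITD libraries and in fewer than 3 of the others, 3 reached it in a mixture of libraries, and 0 passed through the double-mutant libraries alone. Nearest to the limit, the third highest library stood at 1.002 CPM for chr13:23831697-23831804 (plus strand) and 1.01 CPM for chr13:21813664-21813680 (minus strand), which were taken. It stood at 0.989 CPM for chr3:96023754-96023765 (plus strand) and 0.877 CPM for chr13:23855371-23855383 (minus strand), which were not.

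The 6 libraries form 2 groups of 3. One group is FLT3-ITD, cells with a FLT3 receptor kinase that holds an internal tandem duplication. In the other group, called the double mutant, the same kinase also holds D835Y, which replaces an aspartate of its activation loop by tyrosine. FLT3-ITD is thus shared by all 6 libraries, and cells without it were not analysed here. The labels name RPMI-1640 as the medium and BALB/c as the strain, and give no clone, passage, vector or time. A second label numbers the substituted residue differently in each double-mutant sample, so the groups follow the titles. Separate cultures are not stated, so p-values measure only how these samples vary, which may be technical. The libraries held 5884258 to 13977941 tags, which puts 1 tag at 0.0715 to 0.170 CPM.

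Replication-dependent histone genes supply the H1, H2A, H2B, H3 and H4 proteins that package newly made DNA, and they are transcribed mainly in S phase. Most lack introns and end in a stem-loop in place of a poly(A) tail, and they lie in clusters in which H2A and H2B genes often share a divergent promoter. H2A, H2B, H3 and H4 form the nucleosome core, and H1 binds the linker DNA between cores. In bulk libraries fewer cells in S phase and less histone RNA per cell cannot be told apart.

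The label was checked against RefSeq genes of build GRCm38.p6, by number and length only, since coordinates were not converted between builds. RefSeq places 24 histone genes in its first chromosome 13 group, 30 in the second and 10 in the chromosome 3 group, over 328, 233 and 50.3 kb. The starts with a mean of at least 1000 CPM numbered 16, 22 and 7 in the 3 windows and spanned 327, 233 and 48.8 kb. Genes beyond a large gap at the far end of the second RefSeq group had been left out as outside the window. The same cut was not made in the other groups. The number and length of the second group thus depend on that cut, and its match in length is no independent check. Of the 64 RefSeq genes, 6 were H1, 18 H2A, 16 H2B, 12 H3 and 12 H4. H1 genes were divided unevenly, with 1 in the first group, 5 in the second and 0 in the third. No gene name is given to a single start, because the files name peaks by position alone and no annotation of their build was used here.

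The promoters that RefSeq gives for these genes are shown first because they carry the sequence elements that the families share. Of the 64 genes, 57 were in the table of promoters (GRCm38.p6). Capitals mark the CCAAT box, known as a site of NF-Y, the TATA box core TATAA, the octamer ATTTGCAT, known as a site of POU factors in H2B promoters, and the H1 box AAACACA, each on either strand. Each sequence ends at the base before the RefSeq start, 5′ to 3′ on the strand of the gene, and the gene shown for each family is one with the most kinds of these elements in this stretch. The positions are those of GRCm38.p6 and cannot be set beside the mm9 positions of the starts. H1f5 is at chr13:21780626-21780745 (minus strand), H2ac4 at chr13:23750968-23751087, H2bc14 at chr13:21721924-21722043, H3c10 at chr13:21717508-21717627 and H4c4 at chr13:23581448-23581567 (plus strand for these 4).
H1f5: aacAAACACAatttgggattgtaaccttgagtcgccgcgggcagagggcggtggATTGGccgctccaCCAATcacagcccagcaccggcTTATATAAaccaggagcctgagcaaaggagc
H2ac4: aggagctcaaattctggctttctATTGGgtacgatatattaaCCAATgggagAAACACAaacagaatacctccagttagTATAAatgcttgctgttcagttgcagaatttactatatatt
H2bc14: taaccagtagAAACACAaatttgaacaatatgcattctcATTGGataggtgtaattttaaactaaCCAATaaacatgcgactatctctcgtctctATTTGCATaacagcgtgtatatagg
H3c10: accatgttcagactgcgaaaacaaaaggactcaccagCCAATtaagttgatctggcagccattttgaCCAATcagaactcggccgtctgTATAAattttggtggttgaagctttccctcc
H4c4: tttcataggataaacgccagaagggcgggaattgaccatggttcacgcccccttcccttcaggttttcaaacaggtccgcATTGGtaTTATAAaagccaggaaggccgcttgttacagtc

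RefSeq also lists 9 head-to-head pairs of histone genes with starts 164 to 268 bp apart, 7 in the first chromosome 13 group and 2 in the second, and all 9 join an H2A and an H2B gene, where the H2B gene of 1 pair has the symbol H4bc24 and is counted as H2B by its older symbol Hist1h2br. One of them is shown whole because its 2 genes share a single stretch of promoter. It lies between H2ac8 on the minus strand and H2bc8 on the plus strand, at chr13:23571221-23571399 of GRCm38.p6, and reads towards H2bc8 with the same elements in capitals.
H2ac8 and H2bc8: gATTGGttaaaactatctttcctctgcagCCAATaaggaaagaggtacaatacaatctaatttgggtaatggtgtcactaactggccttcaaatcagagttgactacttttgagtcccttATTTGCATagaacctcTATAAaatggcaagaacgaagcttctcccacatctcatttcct

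In the 250 bases before the start, CCAAT was found on either strand in 82.5% of the 57 histone promoters and in 34.5% of all 27025 promoters. All 6 H1, all 16 H2A and all 14 H2B promoters held it, against 8 of 10 H3 and 3 of 11 H4. TATAA was found in 61.4% against 23.5%, where TATAA and its reverse complement TTATA can overlap. Limited to the gene's own strand between 40 and 20 bases before the start, TATAA was found in 24.6% against 3.83%. The octamer was found in 17.5% against 1.61%, and the 10 histone promoters with it were 5 H2A and 5 H2B. Promoters of a head-to-head pair overlap within these 250 bases. The H2A and H2B counts, for CCAAT as well, are therefore not independent. The H1 box was in 5 of 6 H1 promoters, 1 H2A and 1 H2B, against 6.22% of all promoters. These are matches of letters and not measured sites.

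Histone starts were the most active of all. The 5 peaks with the highest mean CPM among all 158966 lay in the windows, as did 8 of the top 10, 14 of the top 20 and 41 of the top 100. The top 20 include 3 near-identical pairs, described below, whose single levels and ranks are uncertain. Since CPM here counts 5′ ends, levels of different starts can be compared without a correction for transcript length. Together the 90 starts took 19.9%, 21.0% and 22.5% of all tags in the FLT3-ITD libraries and 17.7%, 17.6% and 18.3% in the double-mutant libraries. The groups did not overlap, and the share was 21.1 ± 1.29% against 17.9 ± 0.40% (SD, n = 3 each; exact two-sided permutation test, p = 0.1). With 3 against 3 libraries there are 20 arrangements and 0.1 is the smallest p, so no summed level or ratio below can pass a threshold of 0.05.

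Most of the difference in share, -2.70 of -3.27 percentage points, lay in the second chromosome 13 window. Its starts summed to 90693, 97022 and 98022 CPM in FLT3-ITD cells and to 68535, 65945 and 70224 CPM in the double mutant. The means, 95246 ± 3974 and 68235 ± 2155 CPM, differed by -28.4% without overlap (exact permutation p = 0.1). The first chromosome 13 window summed to 67673, 71246 and 78519 CPM against 71589, 69152 and 75553 CPM, and the groups overlapped (72480 ± 5527 against 72098 ± 3231 CPM, exact permutation p = 1). The chromosome 3 window summed to 40856, 42013 and 48399 CPM against 36633, 41060 and 37606 CPM, again with overlap (43756 ± 4062 against 38433 ± 2327 CPM, exact permutation p = 0.2). Of the tags of all 90 starts, the second window held 45.1 ± 1.34% in FLT3-ITD cells and 38.2 ± 0.68% in the double mutant, and the first window 34.3 ± 0.57% and 40.3 ± 0.98%.

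The windows were then set against each other within each library, which removes the scaling of libraries. The log2 ratio of the second to the first chromosome 13 window was 0.42, 0.45 and 0.32 in FLT3-ITD cells and -0.06, -0.07 and -0.11 in the double mutant. The difference was -0.47 (SDs 0.07 and 0.02) without overlap. The ratio of the second window to the chromosome 3 window differed by -0.30, also without overlap (both exact permutation p = 0.1). The ratio of the chromosome 3 window to the first window differed by -0.18 with overlap (exact permutation p = 0.2). With the median log2(CPM + 1) of a window in place of its sum, this last ratio differed by -0.52 and that of the second to the first window by -0.85, each without overlap (exact permutation p = 0.1). Such medians rest on few starts of middle level. On chromosome 3 the median lies between chr3:96023800-96023823 (272 CPM, log2 change -0.83) and chr3:96218748-96218762 (238 CPM, -0.17). In the second window it lies at chr13:23662903-23662925 (96.0 CPM, -0.83).

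Within the second window the lower level lay on one side of a gap. Each window was divided where consecutive starts lay more than 50 kb apart, a limit chosen after the values were seen. Part 1 of the second window, chr13:23622786-23714432, summed to 66696, 71834 and 72274 CPM in FLT3-ITD cells and 44450, 41898 and 45347 CPM in the double mutant (70268 ± 3101 against 43899 ± 1789 CPM, -37.5%). Part 2, chr13:23775810-23855543, summed to 23997, 25188 and 25748 CPM against 24084, 24047 and 24877 CPM (24978 ± 894 against 24336 ± 469 CPM, exact permutation p = 0.4). The log2 ratio of part 1 to part 2 was 1.49 ± 0.02 and 0.85 ± 0.04, a difference of -0.64 without overlap (exact permutation p = 0.1). The log2 ratio of part 2 to the first window differed by -0.03, with overlap (exact permutation p = 0.6).

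**Figure D1:**
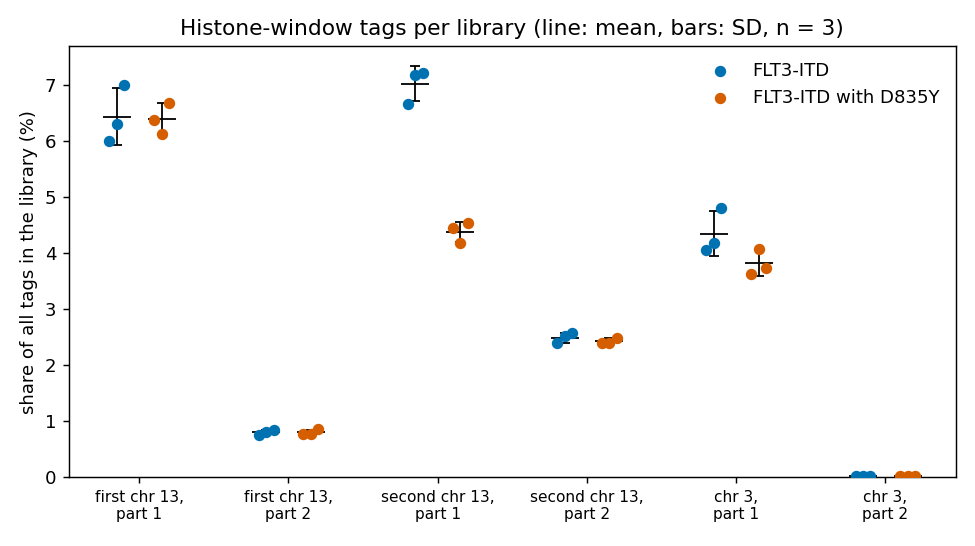
Share of all tags in each library (%, vertical axis) for the parts of the 3 windows, with 1 point per library, a line at the mean and bars for the SD (n = 3 per group). Part 1 of the second chromosome 13 window lies at 6.67 to 7.23% in FLT3-ITD libraries and 4.19 to 4.53% in double-mutant libraries, while the groups overlap in both parts of the first window.

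Single starts were tested with limma on log2(CPM + 1), in a fit over all 19162 peaks that reached the minimum level, with p-values adjusted over all of them and a threshold of 0.05. Differences are double mutant minus FLT3-ITD on that log2 scale. Of the 90 starts, 34 fell, 3 rose and 53 did not pass, while over all peaks tested 10.4% fell and 14.1% rose (24.4% either way). The median difference was -0.32 over the 90 starts and 0.05 over all tested. The groups did not overlap for 52 of the 90, 47 of them lower and 5 higher, against 41.8% of all tested (17.6% lower, 24.2% higher). Of the 90, 11 passed the minimum level through the FLT3-ITD libraries, which favours lower values without overlap. The count of groups without overlap was not repeated without them. Since 5 of the 34 falls passed that way, the count of calls was also made on starts at 1 CPM or more in all 6 libraries. There 29 of 76 fell and 3 rose, against 10% and 13.7% of all 15201 such peaks.

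By window, 28 of 49 starts fell and 1 rose in the second chromosome 13 window (median -0.52), 2 of 25 fell and 2 rose in the first (median 0.00), and 4 of 16 fell and 0 rose on chromosome 3 (median -0.29). At an unadjusted p under 0.05, or by edgeR, DESeq2 or limma-voom, 0 rose on chromosome 3 as well. On starts at 1 CPM or more in all 6 libraries the counts were 25 falls and 1 rise of 41 in the second window, 2 and 2 of 23 in the first, and 2 and 0 of 12 on chromosome 3 (median -0.26). Part 1 of the second window held 24 of the 34 falls, and 21 of its 25 starts at 1 CPM or more in all 6 libraries fell. Elsewhere on chromosome 13, 17.2% of 634 peaks fell and 6.94% rose (median -0.16), and elsewhere on chromosome 3, 17.6% of 894 fell and 12.2% rose (median -0.04). The 20 tested peaks before the second window had a median of -0.18 with 5 falls, and the 20 after it a median of -0.27 with 2 falls. For the first window these were -0.14 with 5 falls and -0.27 with 3, and for the chromosome 3 window -0.25 with 7 falls and -0.15 with 3. Falls on chromosome 3 were thus about as frequent beside the window as in it. On chromosome 13 these sets skip the other histone window. The sets before the first and second windows therefore overlap in position, as do the sets after them, and they are not separate neighbourhoods. They also reach far, since the sets after the windows end at positions 3.02285e+07 and 3.24304e+07. What part a wider shift of chromosome 13 had in these differences was not tested.

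**Figure D2:**
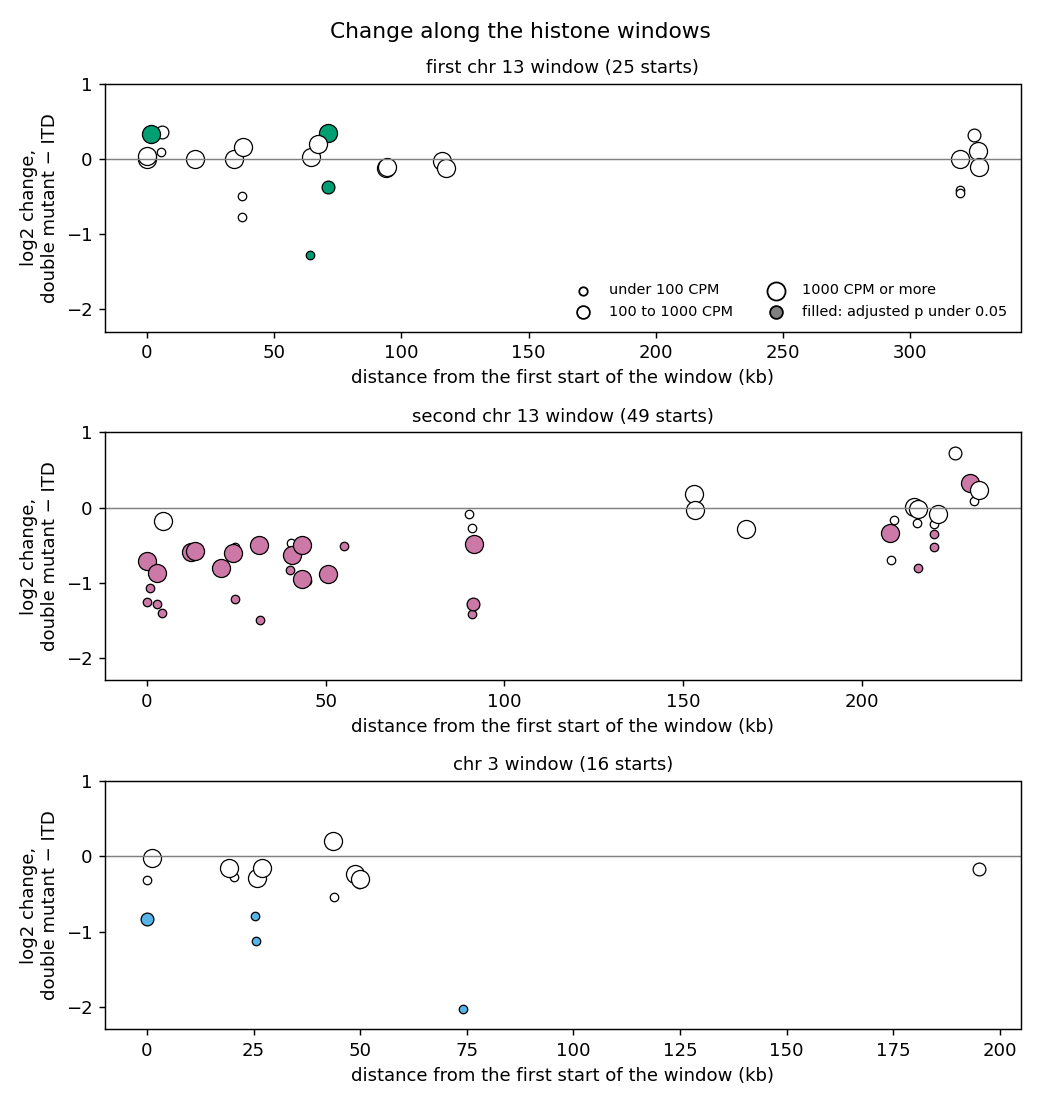
Log2 change (double mutant minus FLT3-ITD, vertical axis) of the 90 starts against the distance from the first start of each window (kb), with point size for the mean level and filled points for an adjusted p under 0.05. All 31 starts of part 1 of the second window, at the left of the middle panel, lie below 0 and 24 of them are filled. Of these 31, 5 passed the minimum level through the FLT3-ITD libraries.

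In the first chromosome 13 window the most active starts differed little between the groups. A divergent pair led it: chr13:21902059-21902069 (minus strand) had 8825, 9263 and 10650 CPM in FLT3-ITD cells and 8936, 8372 and 9066 CPM in the double mutant. Its partner chr13:21902297-21902311 (plus strand) had 8935, 9067 and 9763 CPM against 8181, 8686 and 8771 CPM. The log2 differences were -0.12 and -0.11 (limma adjusted p = 0.45 and 0.44), and only the partner's groups stood apart. The start chr13:21924063-21924067 (minus strand) had 6742, 7181 and 6544 CPM against 6686, 5772 and 7716 CPM. Its double-mutant libraries lay on both sides of the others, with a difference of -0.03.

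The 4 starts of this window that passed the test were smaller. At chr13:21809495-21809500 (plus strand) the levels were 2418, 2940 and 2818 CPM against 3422, 3274 and 3539 CPM, a rise of 0.33 (SE 0.11, limma adjusted p = 0.043). At chr13:21879110-21879125 (minus strand) they were 1583, 1613 and 1875 CPM against 2003, 2311 and 2098 CPM, a rise of 0.34 (SE 0.11, limma adjusted p = 0.040). All double-mutant libraries lay above all FLT3-ITD libraries at both starts. Neither rise passed with TMM or RLE scaling, edgeR, DESeq2, limma-voom or the replicate block, or in most refits without 1 library. The same holds for the only other rise of the 90 starts, chr13:23853036-23853057 (minus strand, second window, 0.33, limma adjusted p = 0.0496).

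The start that faces the second of these rises fell. At chr13:21879349-21879363 (plus strand), which begins 224 bp from the end of its partner, the levels were 492, 512 and 547 CPM against 400, 385 and 406 CPM (-0.38, SE 0.10, limma adjusted p = 0.015). The difference between the members of this pair was not tested. The weak start chr13:21872017-21872054 (minus strand) had 59.5, 117 and 108 CPM against 49.1, 30.5 and 33.5 CPM (-1.28, SE 0.30, limma adjusted p = 0.024). FLT3-ITD replicate 1 was closest to the double mutant there. Both falls were lost without FLT3-ITD replicate 3, and 0 of 25 starts of the first window then fell. The first was also lost without FLT3-ITD replicate 2 or double-mutant replicate 1, and the second without double-mutant replicate 2 or 3 and with the replicate block (limma adjusted p = 0.076).

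In part 1 of the second window most of the active starts fell. The most active start of all 158966 peaks, chr13:23673432-23673438 (plus strand), had 14884, 15798 and 17156 CPM in FLT3-ITD cells and 8912, 7967 and 9065 CPM in the double mutant. The groups stood far apart, with every double-mutant library below every FLT3-ITD library (-0.88, SE 0.11, limma adjusted p = 8.5e-05). This single start held 1.59% of all tags in FLT3-ITD cells and 0.865% in the double mutant. Next came chr13:23622952-23622957 (plus strand) with 7371, 8533 and 7321 CPM against 4929, 3968 and 5348 CPM (-0.71, SE 0.13, limma adjusted p = 0.0014).

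The other starts that the naming rule chose there were lower by similar amounts. At chr13:23646892-23646908 (plus strand) the levels were 5123, 6145 and 7037 CPM against 4213, 4332 and 3434 CPM (-0.61, limma adjusted p = 0.0058). At chr13:23654245-23654261 (minus strand) they were 5736, 6019 and 5465 CPM against 3842, 4449 and 3876 CPM (-0.50, limma adjusted p = 0.0043). The groups stood apart at both. At chr13:23663251-23663261 (plus strand) they were 5395, 5830 and 5025 CPM against 3511, 3427 and 3578 CPM (-0.63, limma adjusted p = 0.00083), and at chr13:23635252-23635271 (minus strand) 3797, 4287 and 4505 CPM against 2937, 2473 and 2917 CPM (-0.60, limma adjusted p = 0.0023). At the far end, chr13:23714417-23714432 (minus strand) had 2999, 3166 and 3443 CPM against 2274, 2771 and 1894 CPM (-0.48, limma adjusted p = 0.019). This last call was lost without FLT3-ITD replicate 2 or 3 or double-mutant replicate 1 or 3 (limma adjusted p up to 0.096).

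The falls followed each other along the chromosome. Runs of 6, 5, 3 and 6 consecutive starts that fell covered most of the stretch from chr13:23622786-23622812 (minus strand) to chr13:23677839-23677850 (minus strand), and both strands took part. The runs include 3 starts that passed the minimum level through the FLT3-ITD libraries, so their direction was in part set by that choice. These are chr13:23623711-23623722 and chr13:23625525-23625530 in the first run and chr13:23643699-23643732 in the next. Near the end of part 1 lay the broadest start of at least 100 CPM, chr13:23713886-23713975 (minus strand, 89 bp). It had 143, 173 and 219 CPM against 98.8, 52.3 and 70.5 CPM (-1.29, SE 0.24, limma adjusted p = 0.0083). The neighbouring weak start chr13:23713806-23713858 (minus strand) had 9.85, 6.80 and 9.65 CPM against 3.86, 1.65 and 2.67 CPM (-1.42, limma adjusted p = 0.00067). The groups stood apart at both.

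Part 2 of the second window held 18 starts, of which 4 fell and 1 rose. Its most active start, chr13:23790324-23790329 (minus strand), had 5229, 5276 and 5074 CPM against 4221, 3877 and 4698 CPM. The groups did not overlap, and the difference of -0.29 did not pass (limma adjusted p = 0.065). The run of falls there consisted of the neighbours chr13:23842976-23842987 and chr13:23843072-23843076 (both plus strand). The first had 71.0, 81.6 and 83.3 CPM against 57.6, 68.4 and 58.2 CPM (-0.35, limma adjusted p = 0.043) and the second 7.80, 7.48 and 10.2 CPM against 6.29, 6.08 and 4.45 CPM (-0.52, limma adjusted p = 0.048). Of the 4 falls in part 2, 0 held in all 6 refits that left out 1 library, against 19 of the 24 in part 1.

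On chromosome 3 the 5 most active starts did not pass the test. The highest, chr3:96049453-96049469 (plus strand), had 9810, 10012 and 9895 CPM in FLT3-ITD cells and 7722, 9072 and 7677 CPM in the double mutant. The FLT3-ITD libraries were close together and all above the others, with a difference of -0.28 (SE 0.11, limma adjusted p = 0.067). It passed with TMM and RLE scaling, edgeR, DESeq2 and limma-voom. The start chr3:96073618-96073626 (plus strand) had 6797, 6747 and 7841 CPM against 6016, 5006 and 6409 CPM (-0.30, limma adjusted p = 0.086), and chr3:96072594-96072606 (plus strand) had 3457, 3702 and 4212 CPM against 3146, 3370 and 3111 CPM (-0.24, limma adjusted p = 0.13).

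The 4 falls on chromosome 3 were at weaker starts. At chr3:96023800-96023823 (plus strand) the levels were 322, 349 and 373 CPM against 191, 187 and 205 CPM (-0.83, SE 0.10, limma adjusted p = 0.00011). Beside the highest start and on the opposite strand, chr3:96049229-96049241 had 6.34, 7.31 and 7.02 CPM against 3.10, 2.00 and 2.87 CPM (-1.12, limma adjusted p = 0.00067). Its neighbour chr3:96049140-96049145 (minus strand) had 1.17, 1.53 and 2.02 CPM against 0.0839, 0.572 and 0.890 CPM (-0.79, limma adjusted p = 0.025). This last start passed the minimum level through the FLT3-ITD libraries alone, 1 double-mutant library held a single tag, and the fall was lost with DESeq2 and without double-mutant replicate 1. Of the 7 starts of at least 1000 CPM on chromosome 3, limma called 0, while 3 were lower at an unadjusted p under 0.05 and edgeR, DESeq2 and limma-voom each called 1 lower.

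Levels ran from 0.873 to 12297 CPM, and the starts divided into a high and a low set. Of the 90 starts, 45 had a mean of at least 1000 CPM, 7 lay between 100 and 1000 CPM and 38 lay under 100 CPM, limits chosen after the values were seen. Among the 45 high starts, 13 fell and 3 rose, and the 13 falls were all in the second window (13 of 22 there). Of the 110 other peaks with at least 1000 CPM, 10% fell and 13.6% rose. Among the 38 low starts, 18 fell and 0 rose, against 10% and 14% of all peaks under 100 CPM. There, too, 0 were higher at an unadjusted p under 0.05 or by edgeR, DESeq2 or limma-voom. Of the low starts at 1 CPM or more in all 6 libraries, 13 of 24 fell and 0 rose, against 9.54% and 13.6% of such peaks under 100 CPM. The low starts that fell numbered 1 of 6, 14 of 25 and 3 of 7 in the first, second and chromosome 3 windows, and without FLT3-ITD replicate 3 the number was 10 in place of 18.

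The low starts summed to 536, 650 and 696 CPM in FLT3-ITD cells and 381, 358 and 348 CPM in the double mutant. The log2 ratio of the low to the high starts (100 CPM or more) in the same library was -8.53, -8.33 and -8.33 against -8.86, -8.94 and -9.04. The groups did not overlap, and the difference was -0.55 (SDs 0.12 and 0.09, exact permutation p = 0.1). Within the windows the difference was -0.88, -0.25 and -0.87 (first, second and chromosome 3), each without overlap and with an exact permutation p of 0.1. Since 11 of the 38 low starts passed the minimum level through the FLT3-ITD libraries, which lowers the ratio by construction, it was recomputed on the 24 low starts at 1 CPM or more in all 6 libraries. The difference was then -0.53 in all and -0.89, -0.23 and -0.61 in the windows, where chromosome 3 kept 3 low starts and the first window 4. In the second window the low sum rests largely on chr13:23662903-23662925, chr13:23842976-23842987 and chr13:23667651-23667662 (means of 96.0, 70.0 and 56.4 CPM). In the first window the low sum rests largely on chr13:21872017-21872054, given above. Without it the low sums were 75.1 ± 20.7 against 51.8 ± 11.9 CPM and the ratio differed by -0.52 with overlap (exact permutation p = 0.2). With medians in place of sums the overall difference was -0.91 on all 38 low starts, with the 11 that passed through the FLT3-ITD libraries among them. This median was not recomputed on the 24.

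**Figure D3:**
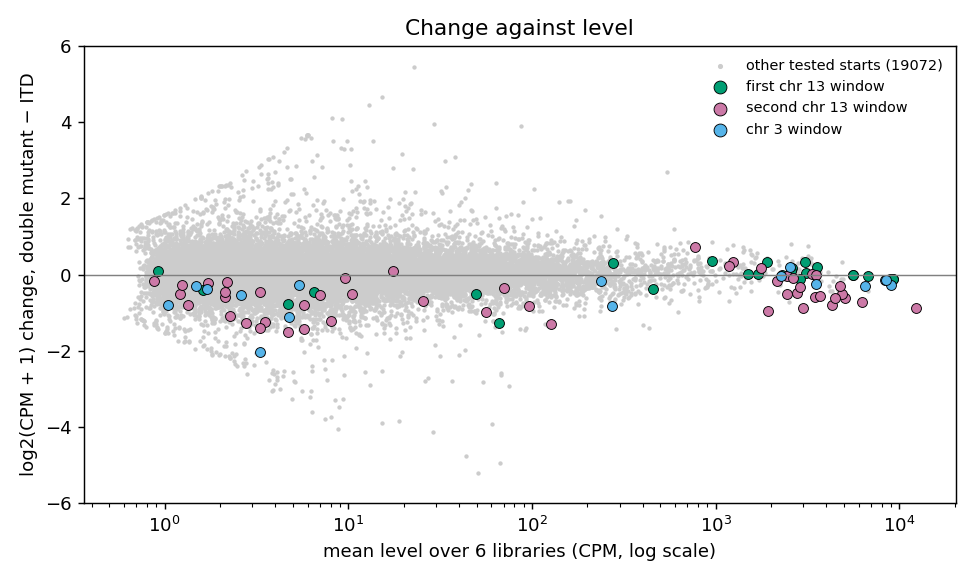
Log2(CPM + 1) change (double mutant minus FLT3-ITD, vertical axis) against the mean level over the 6 libraries (CPM, log axis) for the 90 histone starts, coloured by window, and in grey the 19072 other starts tested. Histone starts make up 45 of the 155 points at 1000 CPM or more, and 36 of the 38 histone starts under 100 CPM lie below 0, 11 of the 38 having passed the minimum level through the FLT3-ITD libraries.

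Histone starts were narrow, though not the sharpest of the active starts. Width is the deposited end minus start. Of the 90 starts, 24 spanned at most 10 bp, 64 spanned 11 to 56 bp and 2 reached 60 bp, while over all 19162 tested peaks 7.64% spanned at most 10 bp and 21.2% at least 60 bp (median 34 bp). The 45 starts of at least 1000 CPM were all 4 to 30 bp wide, with a median of 15 bp. The 110 other peaks of that level ranged from 1 to 86 bp with a median of 9 bp, and 62 of them spanned at most 10 bp.

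**Figure D4:**
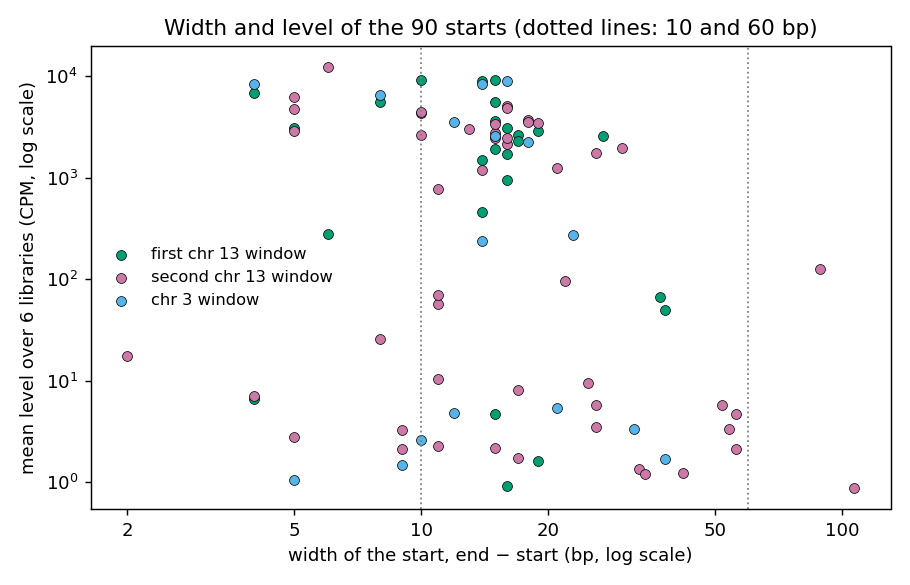
Width of each of the 90 histone starts (bp, log axis) against its mean level over the 6 libraries (CPM, log axis), coloured by window, with dotted lines at 10 and 60 bp. Starts of at least 1000 CPM all lie between 4 and 30 bp, and those under 100 CPM spread from 2 to 107 bp.

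Sharp starts, of at most 10 bp, summed to 82027, 86655 and 91321 CPM in FLT3-ITD cells and 68518, 63408 and 72176 CPM in the double mutant (-21.5%). The wider starts summed to 117195, 123626 and 133619 CPM against 108239, 112749 and 111207 CPM (-11.3%). The log2 ratio of sharp to wider starts was -0.52 ± 0.02 against -0.70 ± 0.11, a difference of -0.18 without overlap (exact permutation p = 0.1). The difference was -0.28 within the second window (exact permutation p = 0.1), -0.01 within the first (p = 0.9, exact permutation test) and -0.04 on chromosome 3 (p = 0.6, exact permutation test). With medians in place of sums the overall difference was -0.43. The median of the wider starts rests on few starts of middle level. Near it lie chr13:21813926-21813942 (954 CPM, log2 change 0.35, limma adjusted p = 0.19) and chr13:23848853-23848864 (774 CPM, 0.73, limma adjusted p = 0.48). Both differences were positive and did not pass, and the second rests on 1 library. With sums the overall difference was -0.12 without double-mutant replicate 2 and -0.11 without the most active start of each window. It was -0.07, with overlap, when sharp meant up to 20 bp. By single starts, 8 of 24 sharp starts fell and 1 rose (background 9.77% and 13%), and 26 of 66 wider starts fell and 2 rose (background 10.4% and 14.1%). Among the sharp falls, chr13:23625525-23625530 and chr3:96049140-96049145 passed the minimum level through the FLT3-ITD libraries. Among the wider falls the same holds for chr13:23623711-23623722, chr13:23643699-23643732 and chr3:96097876-96097908. Their direction was in part set by that choice, and these counts were not repeated without them. The 2 broad starts were chr13:23713886-23713975, given above, and chr13:23831697-23831804 (plus strand), whose mean was under 1 CPM.

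Divergent arrangements were common. A minus-strand start with a plus-strand start at most 500 bp beyond it made 25 pairs that used 45 of the 90 starts. In 6 pairs both starts had at least 100 CPM, with gaps of 196 to 228 bp and levels within 4.19-fold of each other, and 4 of these lay in the first window and 2 in the second. In RefSeq the 9 head-to-head gene pairs were divided 7 and 2 between the same groups. The pair of chr13:21902059-21902069 and chr13:21902297-21902311 was nearly balanced, with 9186 and 8900 CPM on average, though the level of the first is uncertain, as given below. In part 1 of the second window the balanced pair was chr13:23666068-23666098 (minus strand) and chr13:23666303-23666318 (plus strand), picked after its values were seen. The first had 2298, 2449 and 2928 CPM against 1365, 1255 and 1330 CPM (-0.95, limma adjusted p = 7.7e-05) and the second 2595, 3046 and 2991 CPM against 1904, 1843 and 2369 CPM (-0.50, limma adjusted p = 0.0097).

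In 16 further pairs an active start faced a weak one, 46.4 to 8651 times lower, at a gap of 140 to 379 bp. The leading such pair of the second window joined chr13:23622952-23622957, given above, to chr13:23622786-23622812 (minus strand), which had 5.07, 4.93 and 6.14 CPM against 1.93, 1.72 and 1.38 CPM (-1.25, SE 0.18, limma adjusted p = 0.00029). At chr13:23627034-23627088 (minus strand) the weak start had 4.39, 5.10 and 6.32 CPM against 1.85, 1.002 and 1.29 CPM (-1.40, limma adjusted p = 0.00029), while its active partner had a difference of -0.18 (limma adjusted p = 0.27). The strongest of the weak starts, chr13:23662903-23662925 (minus strand), had 113, 116 and 141 CPM against 72.6, 65.1 and 68.6 CPM (-0.83, limma adjusted p = 0.00025). In 14 of the 16 pairs the weak start had the more negative difference. In 6 of the 16 the weak start had passed the minimum level through the FLT3-ITD libraries, so its direction was in part set by that choice. Weak starts fell in 9 pairs and active ones in 6, and in 4 pairs the weak start fell where the active one did not pass. The median difference was -0.79 for the weak and -0.28 for the active starts. In the 9 pairs whose weak start reached 1 CPM in all 6 libraries, the weak start had the more negative difference in 8, fell in 6 and had a median of -0.83, against 4 falls and a median of -0.28 for the active starts. The 16 pairs use 12 active starts, so they are not 16 independent cases, and the difference within pairs was not tested.

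**Figure D5:**
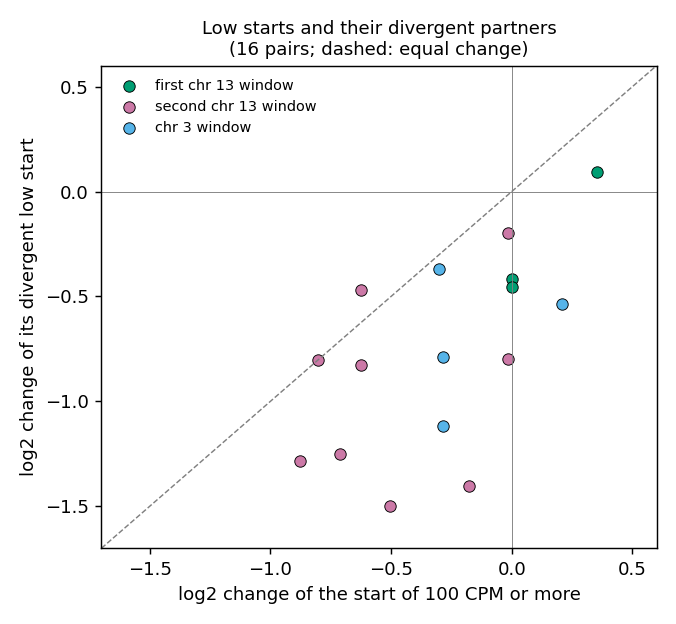
Log2 change (double mutant minus FLT3-ITD) of the weak start, under 100 CPM, of 16 divergent pairs (vertical axis) against that of its active partner of 100 CPM or more (horizontal axis), coloured by window, with a dashed line of equal change. In 14 pairs the point lies below the line.

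Some histone genes are near-identical copies, and 3 pairs of active starts had almost the same level in every library. These were found by comparing all 990 pairs of the 45 high starts and taking those that differed by at most 1% in each library. The pair chr13:21902059-21902069 (minus strand) and chr13:21925605-21925620 (plus strand) lay 23546 bp apart and differed by at most 0.0235%. The pair chr13:21826924-21826939 (plus strand) and chr13:21842404-21842412 (minus strand) differed by at most 0.242%, and chr3:96042904-96042908 (minus strand) and chr3:96050759-96050773 (plus strand) by at most 0.683%. In each pair the starts were on opposite strands. How tags that match more than 1 copy were assigned is not stated in the sources used here, so the level of each of these 6 starts is uncertain. With each pair counted once, the share of all tags differed by -3.10 percentage points in place of -3.27, and the ratio of the second to the first window by -0.49 in place of -0.47.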

How the data were processed

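CAGE peaks of 6 Ba/F3 libraries were used. The values are CPM computed by the authors per library, and each deposited table sums to 1000000 over the same 158966 peaks. The submitters' processing notes name TopHat2 2.0.14, edgeR 3.24.3 and the builds hg19 and mm9, with no role. Tag filters, peak calling, and whether positions count from 0 or 1 are not stated in the sources used here. Divided by the value of 1 tag, 100% of CPM values per library were whole within 0.01, and the recovered tags (3 tags are 0.215 to 0.510 CPM) served the alternatives only.

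Peaks with at least 1 CPM in 3 or more libraries entered the fit with limma 3.58.1 (R 4.3.3, with trend and robust set) on log2(CPM + 1), with Benjamini-Hochberg adjustment and a two-sided threshold of 0.05. Sums and log2 ratios were compared with exact two-sided permutation tests. The fit was tested on simulated data. Alternatives used TMM, RLE, edgeR 4.0.16, DESeq2 1.42.0, limma-voom, other pseudocounts, filters and width limits, a replicate block and leaving out each library.

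Deviations of same-numbered replicates from their group means had correlations of -0.01, 0.02 and 0.19 over all tested peaks. The last was the highest of all combinations of replicates. With 3 libraries per group these values cannot show whether the numbers pair the libraries. The fit reported is unpaired, and the replicate block is an alternative. Starts were named by a rule: per window the 5 highest, the 2 largest rises and falls among called starts of at least 5 CPM, the highest divergent pair and broad start, and the ends of runs of called starts. Members and lists were chosen with earlier results of these data known. Cell type markers and the factors of histone transcription were not analysed here, since the files name no genes.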

Additional observations from a re-analysis of the deposited data

How the results depend on the processing

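Of 605 refits of the 34 starts chosen by the naming rule, 500 stayed on their side of the threshold, 94 lost a call, and 11 gained one. In 11 refits the sign changed, all at 2 starts that did not pass (chr13:21826924-21826939 and chr13:21924063-21924067, by at most 0.075 from 0), and 0 called starts changed sign. Tested against a fold of 1.5, 5 starts fell in all, 0 in the first chromosome 13 window, 4 in the second (all in its part 1), 1 on chromosome 3 and 5 of those under 100 CPM, and 0 rose. The 1 on chromosome 3 was chr3:96097876-96097908, which entered through the FLT3-ITD libraries. The most active start, chr13:23673432-23673438, did not pass against this fold. The number of rises was 3 in the fit reported and 0 with TMM, RLE, edgeR, DESeq2, limma-voom, scaling to tags outside the windows (added after seeing the data) and the replicate block. When starts needed a mean of 5 CPM, 1 start rose, 1 fell on chromosome 3 and 8 fell under 100 CPM. Without a filter 4 fell in the first window. The replicate block left 31 falls in all, 24 of them in part 1 of the second window, and changed no ratio by construction. Without 1 library at a time, falls numbered 23 to 33 in all (22 of the same 34 starts in every refit), 0 to 2 in the first window, 20 to 27 in the second, 20 to 23 in its part 1, 3 to 5 on chromosome 3 and 10 to 16 under 100 CPM, and rises 0 to 4. The log2 sum of the chromosome 3 window differed by -0.23 to -0.11. The share of all tags differed by -2.29 percentage points without the most active start of each window. The log2 sum of the second window differed by -0.48, by -0.54 with TMM, by -0.54 with scaling to outside tags and by -0.41 without those starts, and its ratio to the first window then by -0.42. With medians in place of sums, this ratio differed by -0.85, chromosome 3 to the first window by -0.52, sharp to wider starts by -0.43 and low to high starts by -0.91 (exact permutation p = 0.1 for each). The medians of the second and chromosome 3 windows and of the wider starts rest on the few starts named above. The low starts in that comparison include the 11 that passed the minimum level through the FLT3-ITD libraries, which lowers the ratio by construction. Sharp to wider starts differed by -0.072 with a limit of 20 bp. The cause of these shifts was not tested. Low starts, at a few tags in some libraries, are limited by depth.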

Other observations

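A few starts that the naming rule did not choose were picked after their values were seen. The largest difference among the 90 was at chr3:96097876-96097908 (minus strand), a weak start that stood alone on the far side of the active chromosome 3 starts. It had 5.75, 5.95 and 5.97 CPM in FLT3-ITD cells and 0.168, 0.858 and 1.19 CPM in the double mutant (-2.04 on the log2 scale, SE 0.23, limma adjusted p = 4.3e-05). It reached 1 CPM in the 3 FLT3-ITD libraries and in 1 of the others, so it entered through the group where it is high and its difference is a description. At chr13:23848853-23848864 (plus strand), double-mutant replicate 2 stood at 2044 CPM, where the other double-mutant libraries had 460 and 620 CPM and the FLT3-ITD libraries 594, 487 and 438 CPM. The largest positive difference of the 90 starts, 0.73, rests on that library and did not pass (SE 0.65, limma adjusted p = 0.48). In part 1 of the second window, chr13:23667651-23667662 (plus strand), 11 bp wide, had 76.1, 79.4 and 70.1 CPM against 37.9, 34.8 and 40.2 CPM (-0.98, SE 0.11, limma adjusted p = 5.4e-05). In the same stretch chr13:23712959-23712984 (minus strand) had 9.65, 8.84 and 11.1 CPM against 9.73, 8.30 and 9.69 CPM, and its difference of -0.08 did not pass (limma adjusted p = 0.73).

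Replicates agreed closely at the active starts. The coefficient of variation of the 45 starts of at least 1000 CPM had a median of 8.55% in FLT3-ITD cells and 7.39% in the double mutant, and reached at most 15.7% and 22.2%.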
